A study of Caenorhabditis elegans with 6 samples.

Results

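The 8 GATA factor genes described here encode zinc finger transcription factors of Caenorhabditis elegans: elt-1, elt-3, elt-6 and egl-18, which act in the epidermis, and elt-2, elt-7, end-1 and end-3, which act in the intestine. Their acetylated regions were taken by name, as every peak whose assigned symbol in the authors' peak tables was one of the 8. This gave 6 of 17207 nuclear peaks for acetylated lysine 18 of histone H3 (H3K18ac) and 9 of 17763 for acetylated lysine 27 (H3K27ac), at 5 of the 8 genes. Both marks were profiled by chromatin immunoprecipitation and sequencing (ChIP-seq) of whole wild-type N2 worms, which per the series design also carried a fluorescent hsp-6 reporter. All worms were grown at 20 °C and fed from the egg to the fourth larval or young adult stage with E. coli HT115. The control group received the empty RNAi vector (ev). The stressed group received a mixture of 50% empty vector bacteria and 50% bacteria with RNAi against cco-1, whose product is part of cytochrome c oxidase in the mitochondrial respiratory chain and is encoded in the nucleus. Each of the 4 combinations of mark and diet was 1 library, so the differences below cannot be set against replicates and carry no p-values; the 95% intervals cover counting error only. In whole animals, fewer cells of a type and less acetylation per cell cannot be told apart.

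GATA factors bind short DNA sites built around the letters GATA and act in relays that specify and then maintain a tissue. In the epidermis, elt-1 specifies epidermal fate in the embryo, elt-3 acts below it in the hypodermis, and the neighbouring genes egl-18 and elt-6 maintain the stem-like seam cells. In the endoderm, end-1 and end-3 are switched on briefly in the embryonic precursor of the gut, and elt-2 and elt-7 then drive intestinal genes for the rest of the animal's life. Acetylation of histone H3 at lysines 18 and 27 is placed by enzymes of the CBP/p300 family and marks active promoters and enhancers.

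The H3K18ac libraries held 8293828 counts in nuclear peaks with empty vector and 8948860 with cco-1 RNAi, and the H3K27ac libraries 11556404 and 11593321. Levels are given as counts per 1000000 of these sums (CPM), and a peak is said to have risen or fallen when its CPM under cco-1 RNAi was at least 1.5-fold above or below its CPM with empty vector; every ratio below is taken in that direction. Over all nuclear peaks the median log2 ratio was -0.026 for H3K18ac and -0.19 for H3K27ac. At the RNAi target cco-1 the strongest peak had a fold of 8.32 for H3K18ac and 3.15 for H3K27ac. These folds come from counts of DNA reads and not from the transcript. How far they measure acetylation at cco-1 was not tested, as the input libraries were not analysed here.

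Of the epidermal factor genes, elt-1 and elt-6 had assigned peaks in both tables, 5 peaks in each. The symbol egl-18 was assigned to no peak, although acetylated regions lay over the gene, as described below. Of the intestinal factor genes, end-1 had 1 peak in each table, elt-2 had 2 and elt-7 had 1 in the H3K27ac table, and end-3 had none in either. The H3K18ac table gave no peak for elt-7. Chromosome X ended at 7889771 bp in the H3K18ac table and at 12935256 bp in the H3K27ac table, so elt-3 (chromosome X, 13934883 to 13941216 in the RefSeq gene table) was not analysed here for either mark, and elt-2 (10481240 to 10483441) not for H3K18ac. A peak list shows where signal passed the authors' caller: a gene without a peak may still carry acetylation below that limit.

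**Figure D1:**
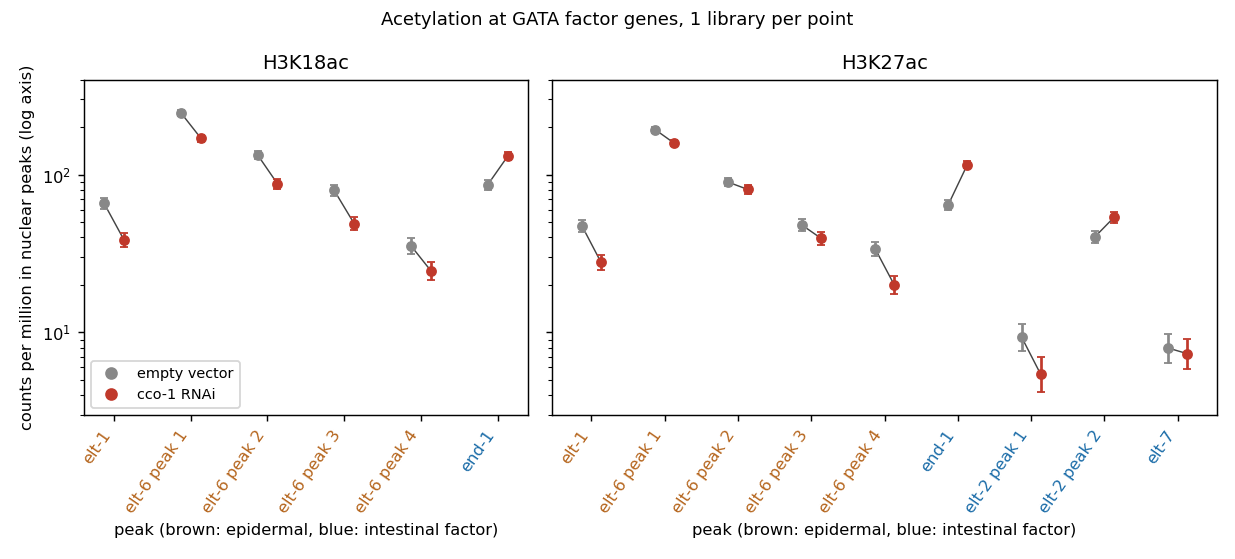
CPM of each peak assigned to a GATA factor gene (log axis) in the empty vector library (grey) and the cco-1 RNAi library (red), for H3K18ac (left) and H3K27ac (right); each point is 1 library, bars are exact Poisson 95% intervals and gene names are brown for epidermal and blue for intestinal factors. Red lies below grey at every elt-1 and elt-6 peak and above it at end-1 and at the second elt-2 peak; under median or TMM scaling the order turns at the second elt-6 peak for H3K27ac.

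Acetylation fell at elt-1 in both marks. The gene (WBGene00001249, chromosome IV) had 1 peak per table, just inside its start. For H3K18ac (9615260 to 9615726, 104 bp from the start) there were 546 counts with empty vector and 345 with cco-1 RNAi, or 65.8 and 38.6 CPM. This was a fold of 0.586 (0.510 to 0.671), and 6.78% of all H3K18ac peaks had a lower ratio. For H3K27ac (9615234 to 9615764, 78 bp from the start) there were 548 and 323 counts, or 47.4 and 27.9 CPM. This was a fold of 0.588 (0.510 to 0.675), and 14.8% of all H3K27ac peaks had a lower ratio. The Poisson intervals of the 2 libraries did not overlap in either mark. The elt-1 log2 ratios were also below the medians of the same decile of strength (mean CPM), with differences of -0.70 for H3K18ac and -0.58 for H3K27ac. The H3K27ac call depended on the scaling: the log2 ratio was -0.57 with median scaling and -0.58 with centring by decile, both just short of 1.5-fold. With median scaling the H3K18ac ratio was -0.75, and the gap between the marks was within counting error.

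Among the genes with a peak, acetylation with empty vector was strongest, per gene symbol and per kb, across egl-18 and elt-6, which stand side by side on chromosome IV. The authors assigned 4 peaks per table here, all to elt-6 (WBGene00001253). By the RefSeq spans (egl-18 at 1913446 to 1917840 and elt-6 at 1917977 to 1921644, 136 bp apart), the first and second of these peaks lay wholly inside egl-18 in both tables. The third lay over the start of elt-6, where its H3K18ac form also covered the last 25 bp of the egl-18 span, and the fourth lay inside elt-6. The symbol in the tables therefore stands for 2 genes, and which of them each peak serves was not tested.

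All 4 H3K18ac peaks of the egl-18 and elt-6 region were lower with cco-1 RNAi by similar amounts. The first (1913578 to 1915098) had 2051 and 1528 counts, or 247 and 171 CPM, a fold of 0.690 (0.646 to 0.738). It was 1521 bp wide and stronger than 96.5% of all H3K18ac peaks. The second (1915498 to 1916040) had 1110 and 784 counts, or 134 and 87.6 CPM, a fold of 0.655 (0.597 to 0.718). The third, over the elt-6 start (1917816 to 1918293), had 659 and 438 counts, or 79.5 and 48.9 CPM, a fold of 0.616 (0.545 to 0.696). The fourth (1919562 to 1920052) had 294 and 220 counts, or 35.4 and 24.6 CPM, a fold of 0.694 (0.580 to 0.829). The second and the third thus fell, while the first and the fourth, with log2 ratios of -0.53 and -0.53, lay just short of 1.5-fold. With centring by decile the first peak passed 1.5-fold (-0.67). The call at the second peak was lost without scaling (-0.50) and with the pseudocount (-0.57). Among the 4 H3K18ac peaks every interval of the difference between a pair of log2 ratios held 0; the widest difference, the fourth peak minus the third, was 0.17 (-0.14 to 0.48).

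H3K27ac in the same region was less even. The first 3 peaks had folds of 0.820 (0.770 to 0.873; 2231 and 1835 counts, 1913543 to 1915059), 0.901 (0.824 to 0.986; 1035 and 936 counts, 1915537 to 1916078) and 0.824 (0.727 to 0.935; 555 and 459 counts, 1917843 to 1918236). None of these 3 passed 1.5-fold. Relative to the median of all H3K27ac peaks their log2 ratios were -0.094, 0.043 and -0.086. Relative to the median of peaks in the same decile of strength they were lower, at -0.40, -0.18 and -0.19. Whether these 3 were reduced beyond the general shift thus depended on the reference, and no direction is given for them. The fourth peak, inside elt-6 (1919545 to 1920034), had 393 and 233 counts, or 34.0 and 20.1 CPM, and fell to a fold of 0.591 (0.5004 to 0.697). This call was lost, just short of 1.5-fold, with median scaling (-0.57), TMM scaling (-0.58) and centring (-0.53). The log2 ratio of the fourth peak was below that of the first by 0.47 (-0.47, interval -0.72 to -0.22), a gap larger than counting error.

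**Figure D2:**
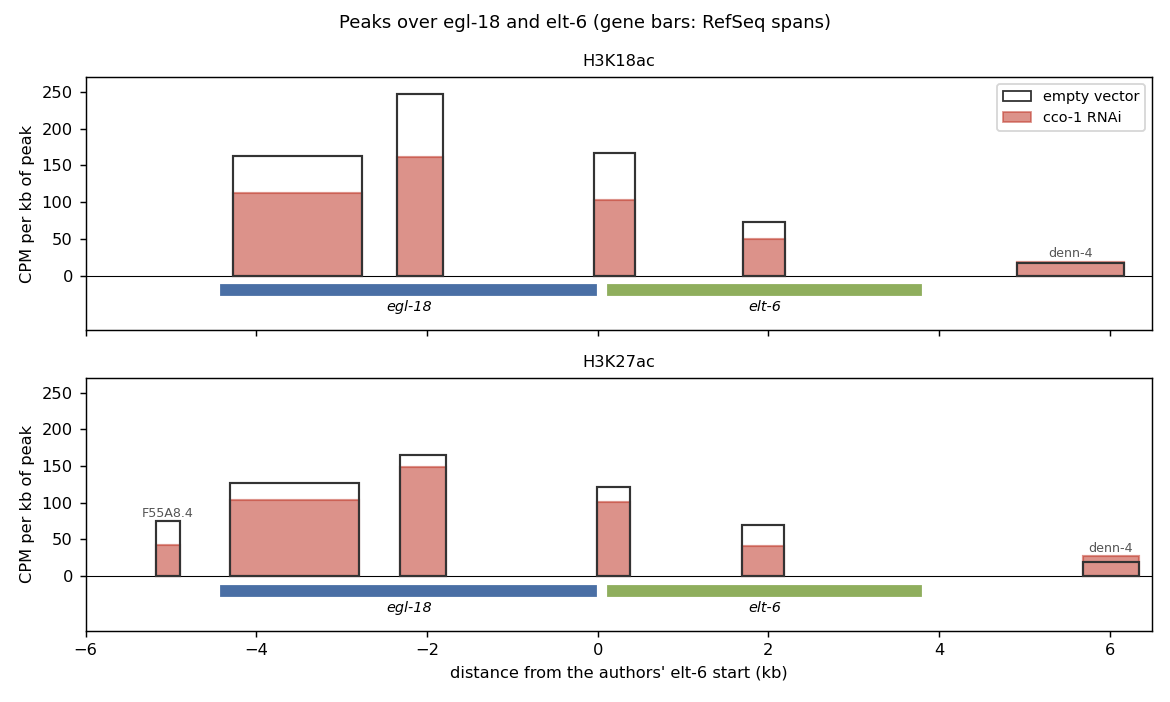
Peaks over egl-18 and elt-6 for H3K18ac (top) and H3K27ac (bottom), as CPM per kb of peak (vertical axis) against distance in kb from the authors' elt-6 start; open boxes are empty vector, red boxes cco-1 RNAi, bars below are RefSeq gene spans, and peaks assigned to other genes carry their symbol. The red boxes end below the open ones at all 4 peaks of both marks, by more for H3K18ac than for H3K27ac at the first 3; under median or TMM scaling the second H3K27ac peak has a ratio above 1.

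At the intestinal factor gene end-1, acetylation in whole worms rose in both marks. The gene (WBGene00001310, chromosome V) had 1 peak per table, inside the gene. For H3K18ac (13986340 to 13986955) there were 715 and 1169 counts, or 86.2 and 131 CPM, a fold of 1.52 (1.38 to 1.67), so the interval reaches below 1.5, and the call was lost with centring by decile (log2 ratio 0.58) and with the pseudocount (0.56). For H3K27ac (13986342 to 13986924) there were 746 and 1343 counts, or 64.6 and 116 CPM, a fold of 1.79 (1.64 to 1.97). Higher ratios were found at 8.54% of all H3K18ac peaks and 4.2% of all H3K27ac peaks. The end-1 peak lay 1203 bp (H3K18ac) and 1205 bp (H3K27ac) from the gene's start, and no assigned peak covered the start itself.

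At elt-2, the principal intestinal GATA factor of larvae and adults, H3K27ac had 2 peaks with opposite ratios. The peak inside the gene (WBGene00001250, chromosome X, 10482300 to 10482810, 1062 bp from the start) had 466 counts with empty vector and 621 with cco-1 RNAi, or 40.3 and 53.6 CPM. Its fold of 1.33 (1.18 to 1.501) was short of the 1.5-fold limit, and 14.1% of all H3K27ac peaks had a higher ratio. With median scaling the peak passed the limit (log2 ratio 0.60), and with TMM scaling it lay just short (0.58). The weak peak upstream (10480562 to 10480871, 676 bp from the start) had 108 and 63 counts, or 9.35 and 5.43 CPM, and fell to a fold of 0.581 (0.419 to 0.801). That peak was stronger than only 3.85% of all H3K27ac peaks, and in its decile of strength the median log2 ratio was -0.65 and 54.2% of peaks fell, against -0.78 for the peak itself. With centring by decile (-0.13) and with the pseudocount (-0.39) it no longer passed 1.5-fold.

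The single elt-7 peak, for H3K27ac, was also weak. It lay 514 bp upstream of the gene (WBGene00015981, chromosome V, 4770157 to 4770448) with 92 and 85 counts, or 7.96 and 7.33 CPM, a fold of 0.921 (0.678 to 1.25). A change was not detectable at this depth, because the interval holds ratios on both sides of 1, and the sign of the log2 ratio (-0.12) turned under median scaling, TMM scaling and centring by strength. The nearest H3K18ac peak to elt-7 lay 1004 bp beyond its RefSeq span and was assigned to C18G1.1.

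For end-3, the partner of end-1 in endoderm specification, the nearest peaks lay outside the gene (RefSeq span chromosome V, 14014695 to 14015980). On one side was a peak over the start of aip-1, 1712 bp (H3K18ac) and 1709 bp (H3K27ac) away. On the other was one inside the metallothionein gene mtl-2, 2341 and 2308 bp away.

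**Figure D3:**
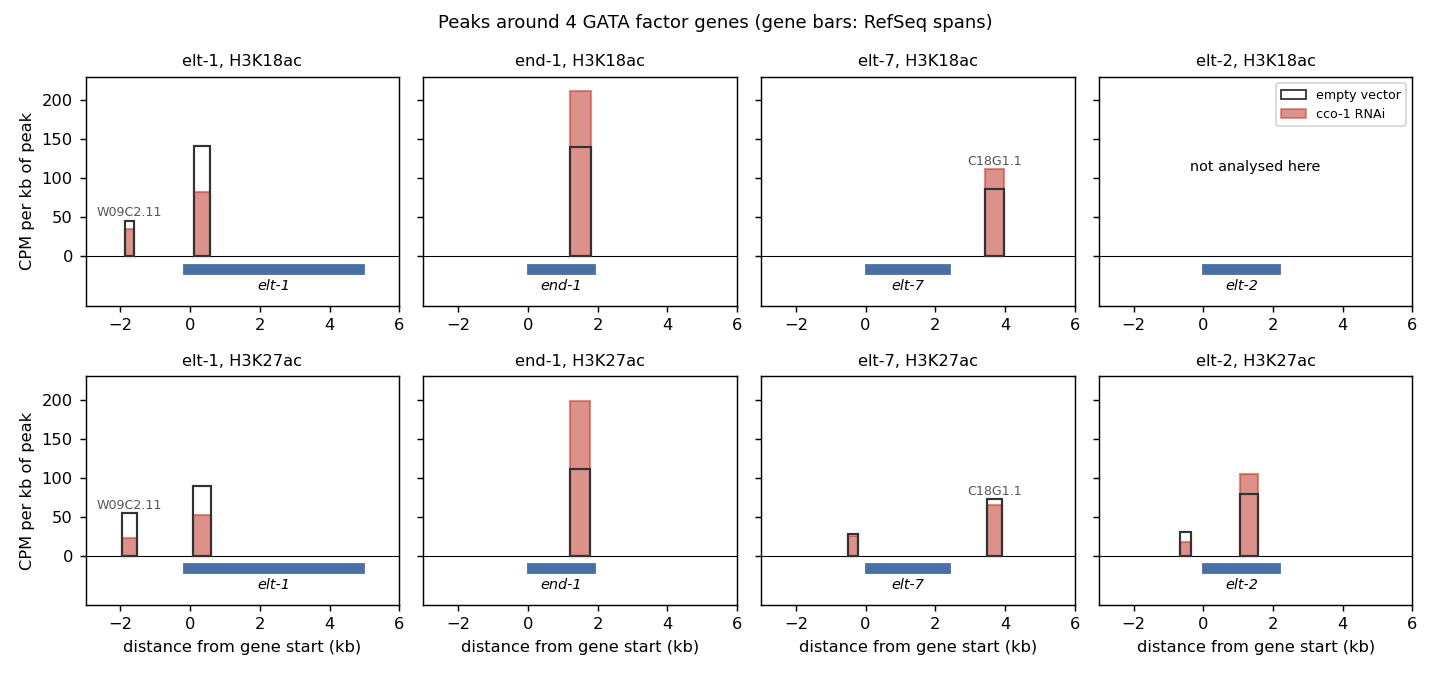
Peaks around elt-1, end-1, elt-7 and elt-2 for H3K18ac (top row) and H3K27ac (bottom row), as CPM per kb of peak against distance in kb from the authors' gene start; open boxes are empty vector, red boxes cco-1 RNAi, bars below are RefSeq spans and peaks of other genes carry their symbol. At elt-1 the red box ends below the open box, and at end-1 above it, in both marks.

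Per kb of peak, the order of the genes differed between the diets. For H3K18ac with empty vector, elt-6 (including the peaks over egl-18) had 164 CPM per kb, above elt-1 at 141 and end-1 at 140, which did not differ beyond counting error (129 to 153 and 130 to 151). With cco-1 RNAi, end-1 was highest at 212 CPM per kb (200.1 to 225), followed by elt-6 at 109 (106 to 113) and elt-1 at 82.6 (74.1 to 91.7). For H3K27ac with empty vector the order was elt-6 at 124 CPM per kb, end-1 at 111, elt-1 at 89.3, elt-2 at 60.5 and elt-7 at 27.3, and no neighbours in that order had overlapping intervals. With cco-1 RNAi it was end-1 at 199 CPM per kb, elt-6 at 101 (98.1 to 105), elt-2 at 71.9 (66.6 to 77.5), elt-1 at 52.5 (46.9 to 58.5) and elt-7 at 25.1. Thus end-1 stood at the top of both marks under cco-1 RNAi, and elt-1 and elt-2 exchanged places for H3K27ac.

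Set side by side, the epidermal factor peaks had lower H3K18ac under cco-1 RNAi, while end-1 rose in both marks and the other intestinal factor peaks were mixed. For H3K18ac, 3 of the 5 epidermal peaks fell, 0 rose, and all 5 had a ratio below 1, with a median log2 ratio of -0.61 (-0.77 to -0.53); the 1 intestinal peak, at end-1, rose (0.60). Over all nuclear H3K18ac peaks 13.2% fell, 9.16% rose and 52.1% had a ratio not above 1. The difference between end-1 and each epidermal peak was between 1.13 (the fourth peak of elt-6, interval 0.84 to 1.41) and 1.37 (elt-1, 1.14 to 1.61) on the log2 scale, so each was larger than counting error. For H3K27ac, 2 of the 5 epidermal peaks fell and 0 rose, with a median of -0.29 (-0.77 to -0.15), at a background of 23.1% of all peaks falling. Of the 4 intestinal H3K27ac peaks 1 rose, 1 fell and 2 were within 1.5-fold, with a median of 0.15 (-0.78 to 0.84), at a background of 8.73% rising. Summed over peaks, epidermal factor H3K27ac went from 412 to 327 CPM and intestinal factor H3K27ac from 122 to 182 CPM; most of the latter step was end-1, and the other 3 intestinal peaks went from 57.6 to 66.3 CPM. These peaks belong to 2 epidermal and 3 intestinal gene symbols, 4 of the 5 epidermal peaks are from 1 region, and members are not replicates of a condition.

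**Figure D4:**
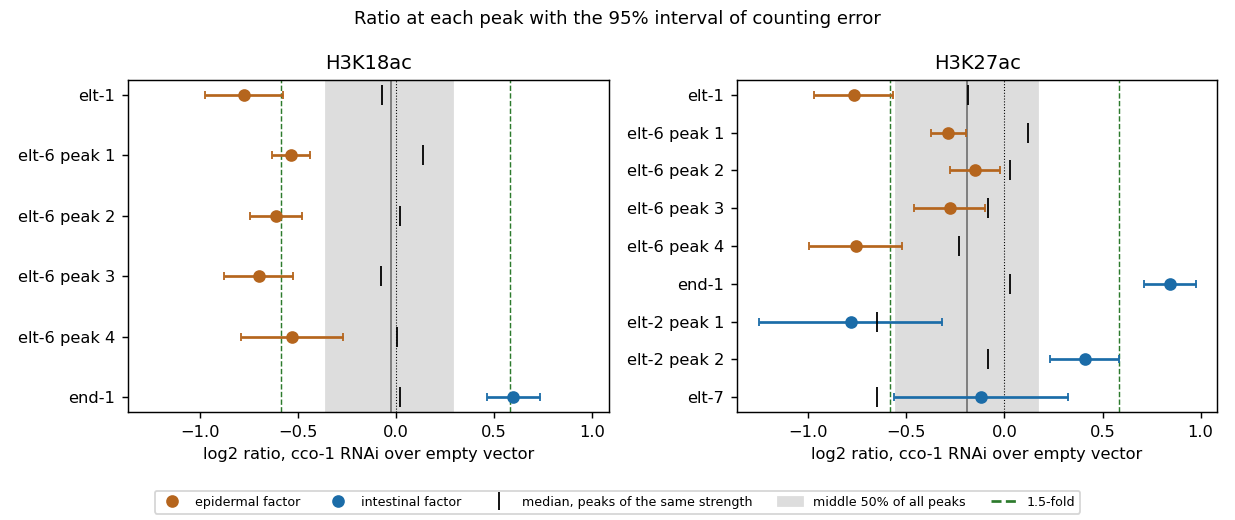
Log2 CPM ratio (cco-1 RNAi to empty vector) at each assigned peak (points; bars are 95% intervals of counting error) for H3K18ac (left) and H3K27ac (right); the grey band holds the middle 50% of all nuclear peaks, the grey line their median, black ticks the median of peaks in the same decile of strength, and dashed lines 1.5-fold. All 5 epidermal points lie left of the band for H3K18ac, while for H3K27ac 3 of the elt-6 points lie inside it and the weak elt-2 peak lies near its black tick.

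The marks were compared at the 6 places where an H3K18ac and an H3K27ac peak of the same gene overlapped. The log2 ratios had the same sign at 6 of 6, except that median or TMM scaling turned the second H3K27ac peak of elt-6 to a ratio above 1. Over all overlapping pairs in the genome both ratios were below 1 at 40.6% and above 1 at 29.1%, so a shared sign was common. Both marks fell at 1 place, elt-1, and both rose at 1, end-1; among the 15026 overlapping pairs 5.96% fell and 2.92% rose in both. Both calls ended under some settings, at elt-1 through H3K27ac with median scaling or centring and at end-1 through H3K18ac with centring or the pseudocount. At elt-1 the difference between the marks (H3K27ac minus H3K18ac log2 ratio) was 0.0047 (-0.27 to 0.28). At the first 3 peaks of the egl-18 and elt-6 region it was 0.25 (0.12 to 0.38), 0.46 (0.28 to 0.65) and 0.42 (0.17 to 0.67), so H3K18ac was reduced more than H3K27ac there by more than counting error. At the fourth peak, inside elt-6, it was -0.23 (-0.57 to 0.11), and at end-1 0.24 (0.058 to 0.43). Over all overlapping pairs the median difference was -0.13, with the middle 50% between -0.43 and 0.18. The first 3 peaks of the egl-18 and elt-6 region and the end-1 peak lay above that middle range.

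Genes of each tissue outside the GATA family, from lists chosen with earlier results of these data known, were read at their strongest assigned peak. Of 26 epidermal genes 14 had an H3K18ac peak: 3 fell, 0 rose and 14 of 14 had a ratio below 1, with a median log2 ratio of -0.39. Over all symbols 13.2% fell and 7.99% rose by the same rule, and 53.0% had a ratio below 1. The collagen genes dpy-7 (-0.61) and bli-1 (-0.69) and, at a weak peak of 90 and 46 counts, the seam cell gene bro-1 (-1.08) fell, and dpy-13, also a collagen, and the nuclear receptor gene nhr-23, which drives moulting, had ratios of -0.53 and -0.44. For H3K27ac 2 of 14 fell, 0 rose and 13 were below 1, with a median of -0.39. Over all symbols 21.9% fell and 62.4% were below 1. The genes dpy-7 (-0.65) and nhr-23 (-0.62) fell, while bli-1 had -0.56 and the collagen gene rol-6 -0.45. For nhr-23 the peak read lay over the gene's start for H3K18ac and inside the gene for H3K27ac. The summed level of the listed epidermal genes with a peak went from 1699.8 to 1312 CPM for H3K18ac and from 1269.9 to 1029.8 CPM for H3K27ac. These sums were lower with cco-1 RNAi, as were the summed levels of the epidermal GATA factor peaks. For H3K27ac the general shift was also downward, with a median log2 ratio of -0.19 over all peaks. The part of the listed genes in the ratios at elt-1 and elt-6 was not tested.

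Intestinal genes leaned the other way for H3K18ac. Of 27 listed, 12 had a peak in each table. For H3K18ac 2 rose, 0 fell and 9 of 12 had a ratio above 1, with a median of 0.40, where 47.0% of all symbols had a ratio above 1. The protease gene cpr-6 (0.61) rose, as did the metallothionein gene mtl-2 (0.94) at a weak peak of 67 and 139 counts, while the brush border genes erm-1 (0.47) and act-5 (0.44) and the protease gene asp-1 (-0.38) stayed within 1.5-fold. For H3K27ac 1 rose, 2 fell and 8 of 12 were above 1, with a median of 0.083, where 8.7% of all symbols rose, 21.9% fell and 37.6% were above 1; the share that fell was thus no higher than over all symbols. The actin gene act-5 (1.13) rose. The yolk genes vit-1 (-0.93) and vit-4 (-0.72) fell, at weak peaks of 198 and 104 counts and of 226 and 138 counts. The genes erm-1 (0.56), vit-2 (0.33, also a yolk gene) and ifb-2 (0.28, an intermediate filament gene) stayed within 1.5-fold. The summed level of the listed intestinal genes with a peak went from 765 to 863 CPM for H3K18ac and from 688 to 897 CPM for H3K27ac. Its part in the end-1 ratio was not tested. No peak was assigned to ges-1, the gut esterase gene used as an intestinal marker, in either table, although an H3K27ac peak overlapped its span.

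Upstream of end-1 and end-3, the maternal and Wnt pathway genes of endoderm specification split. Of 11 listed, 8 had a peak in each table. For H3K18ac 2 rose, skn-1 (0.85), the maternal factor that starts the endoderm pathway, and the kinase gene lit-1 (0.63). The beta-catenin gene sys-1 (-0.70) was the 1 that fell, while src-1 (0.37) and wrm-1 (-0.26) stayed within 1.5-fold. The median was -0.27, where 7.99% of all symbols rose and 13.2% fell. For H3K27ac 4 fell and 0 rose, with a median of -0.65, where 21.9% of all symbols fell and 8.7% rose. Those that fell were sys-1 (-1.46), the beta-catenin gene wrm-1 (-0.80), the Wnt ligand gene mom-2 (-1.01) and the kinase gene src-1 (-0.89), while skn-1 (0.46) and lit-1 (0.52) stayed within 1.5-fold. This src-1 value is from a weak peak of 146 and 79 counts inside the gene. The H3K18ac peak read for src-1 lay upstream of the gene, so the marks were read at different places. The lit-1 peaks also lay upstream, at -4432 bp (H3K18ac) and -4284 bp (H3K27ac) from the gene's start.

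**Figure D5:**
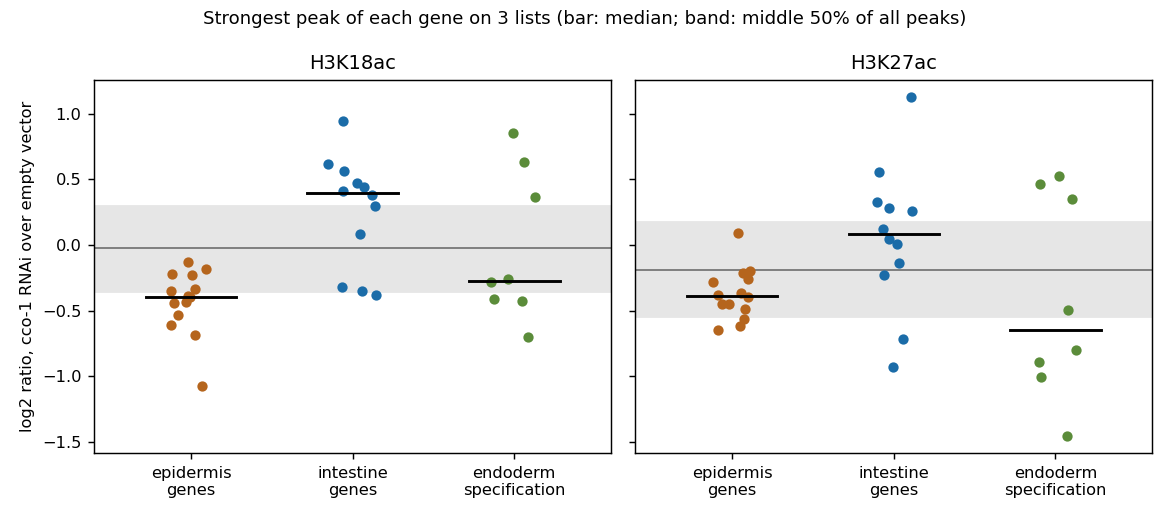
Log2 CPM ratio (cco-1 RNAi to empty vector) at the strongest peak of each epidermis, intestine and endoderm specification gene (points) for H3K18ac (left) and H3K27ac (right); short bars are list medians, the grey band holds the middle 50% of all nuclear peaks and the grey line is their median. All 14 epidermis points are below 0 for H3K18ac, with a median of -0.39 against 0.40 for the intestine genes.

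Of 5 further genes with GATA-type zinc fingers, egl-27 and lin-40, which encode chromatin cofactors, had peaks. No H3K27ac peak was assigned to med-1, med-2 or elt-4, and of these med-1 and elt-4 lay beyond the H3K18ac range on chromosome X. H3K18ac log2 ratios were 0.39 at egl-27 and -0.40 at lin-40, and H3K27ac ratios were -0.14 and -0.066, all within 1.5-fold.

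Among 9967 symbols with a peak in both tables, the genes most like each GATA factor in log2 CPM of the strongest peak over the 4 libraries (smallest Euclidean distance) were C05B5.14 and Y39A3B.6 for elt-1, at distances of 0.093 and 0.11. For elt-6, read at its first peak, which lies inside egl-18, they were anr-2 and Y20F4.4, at 0.18 and 0.22. For end-1 they were W05G11.4 and Y50D4C.8, at 0.15 and 0.16. The likeness is over 4 values only and describes level and ratio together.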

How the data were processed

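Per the file headers, each deposited table gives peaks with the nearest gene and a count for ev and for cco-1. Whole numbers with unequal totals fit raw counts, and the tables were treated so. Tools named in the submitters' processing notes, without their roles, are MACS2 2.1.2, Bowtie2 2.3.5, SAMtools 1.4.1 and FastQC, with ce11 and WBcel235 as builds. How reads were counted, and whether peaks were called on pooled libraries, is not given in the sources used here. The numbers in the sample titles were taken to go with the antibody and not to mark replicates. The 2 input libraries were not analysed here.

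Repeated lines (119 and 111) were counted once, and mitochondrial peaks (5 and 3, all at 0) were left out. Minimum counts were 5 for H3K18ac and 18 for H3K27ac, so ratios have no pseudocount; at the median count, counting error of a ratio is 8.34% and 7.71%. Fold intervals are exact (Clopper-Pearson), differences of log2 ratios use a normal interval from the counts. Python 3.11.15, pandas 2.3.3 and scipy 1.17.1 were used, and edgeR 4.0.16 for TMM factors only; the interval code was tested on simulated data. Gene spans come from a RefSeq gene table (WBcel235) without exons or strands.

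Members and lists were chosen with earlier results of these data known. Named genes are all 8 members, up to 4 genes per other list with the largest absolute log2 ratio at or above median strength, and the 2 nearest genes per member. Some genes were named outside that rule after their values were seen. These were sys-1 for H3K18ac, vit-1, vit-4, skn-1 and src-1 for H3K27ac, and bro-1, mtl-2, ges-1 and the genes in the closing section. A planned count of GATA letters in promoters was not run.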

Additional observations from a re-analysis of the deposited data

How the results depend on the processing

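The scaling to counts in nuclear peaks was replaced by median scaling, TMM, no scaling and centring by strength decile. A pseudocount was added, the limit was raised to 2-fold and peaks were restricted. Peaks by RefSeq span, taken with a flank of 1 kb on each side, were added after seeing the data. No H3K18ac ratio changed sign under the 5 rescalings of single peaks (30 values), and 5 of 45 H3K27ac values did, all at the second elt-6 peak or at elt-7. With the main scaling no peak passed 2-fold (0 in each count), but end-1 H3K27ac did with median scaling (log2 ratio 1.04) and TMM (1.02), where the 2-fold count was not run. For H3K18ac the 1 rise became 0 with centring, with the pseudocount and within 1 kb of gene starts. The 3 falls became 4 with centring and 1 with the strongest peak per gene. They were 2 without scaling, with the pseudocount, and at peaks nearest to or within 1 kb of the start. The epidermal H3K18ac median was -0.50 without scaling and -0.74 at peaks nearest to or within 1 kb of the start. For H3K27ac median scaling gave 2 rises and 1 fall, centring 0 falls (elt-1, elt-2 and elt-6 all lost), median-strength peaks and the strongest peak per gene 1 fall each, and peaks within 1 kb 0 rises. The epidermal H3K27ac median was -0.094 with median scaling, -0.11 with TMM, -0.40 with centring and -0.53 with the strongest peak. It was -0.52 for peaks nearest to the start or within 1 kb of it. By RefSeq span it was also -0.52, because the flank adds the peak assigned to F55A8.4 (-0.81), 483 bp outside the egl-18 span. With that peak the H3K27ac falls were 4. The intestinal H3K27ac median was 0.34 with median scaling, 0.32 with TMM, 0.51 with centring, 0.63 at median strength and 0.41 with the strongest peak, and it reversed to -0.12 for the peak nearest to the start and -0.45 within 1 kb, because these settings keep the weak upstream peaks of elt-2 and elt-7 and drop the peak inside elt-2, and within 1 kb also that of end-1. For the other values that moved, the cause was not tested. Within 1 kb no intestinal H3K18ac peak was left, so that median has no value. No paired analysis was possible because each group has 1 library, and for the same reason no library could be left out.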

Other observations

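Several peaks beside the GATA factor genes carry other symbols. Between elt-1 and the non-coding RNA gene W09C2.11 lay a peak that the authors assigned to W09C2.11. Its H3K27ac form (chromosome IV, 9613201 to 9613644) ended 1351 bp before the RefSeq span of elt-1 and fell from 279 to 118 counts, a fold of 0.422 (0.337 to 0.525). Its H3K18ac form had 94 and 78 counts, a fold of 0.769 (0.562 to 1.05). An H3K27ac peak ending 483 bp before the egl-18 span (1912681 to 1912963), assigned to F55A8.4, fell from 244 to 140 counts, a fold of 0.572 (0.461 to 0.707).

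On the far side of elt-6, the peak over the start of denn-4 had a fold of 1.13 (0.921 to 1.39) for H3K18ac and 1.36 (1.09 to 1.69) for H3K27ac. Beyond end-1, the nearest peak, assigned to droe-4, had folds of 1.02 (0.897 to 1.15) for H3K18ac and 1.31 (1.14 to 1.51) for H3K27ac. Next to end-3, the strong peak over the start of aip-1, which encodes an arsenite-inducible protein, had a fold of 1.22 (1.15 to 1.29) for H3K18ac and rose 1.51-fold (1.46 to 1.56) for H3K27ac, from 5317 to 8046 counts. The mtl-2 peak on the other side rose 1.92-fold (1.43 to 2.61) for H3K18ac, from 67 to 139 counts, and had 1.00 (0.797 to 1.26) for H3K27ac.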
